A study of Mus musculus with 13 samples.

Results

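The clustered histone genes were examined in polyadenylated RNA of mouse embryonic stem cells grown with and without induction of a mutant CTCF. They were taken as the rows of both deposited count tables whose symbol begins with Hist1h, Hist2h, Hist3h or Hist4h, which gave 69 genes of 24421. Of these, 6 encode H1, 19 H2a, 19 H2b, 12 H3 and 13 H4, and 55 belong to Hist1, 10 to Hist2, 3 to Hist3 and 1 to Hist4. The cells were F1-2.1 female ES cells, a CAST/Ei x 129/Sv/Jae hybrid line, of a single clone (A2) with a Tet-on transgene for CTCF S224E, a CTCF in which a serine is replaced by glutamate, an acidic residue that mimics its phosphorylated form. S224E_plus_dox (+dox) was grown with doxycycline at 1 μg/mL for 6 days and S224E_minus_dox (−dox) without it, both on γ-irradiated mouse embryonic fibroblast feeders, with 2 biological replicates each. Both groups carried the transgene, whose vector also expresses EGFP when doxycycline is given. No +dox library without S224E was analysed here. The S224E substitution, the added CTCF, EGFP and doxycycline itself therefore cannot be told apart.

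Most clustered histone genes are transcribed as DNA is replicated and supply the core histones H2A, H2B, H3 and H4 and the linker histone H1 to new chromatin. They are unusual among animal genes in that their mRNA as a rule has no introns and no poly(A) tail: the transcript is cut just after a short RNA hairpin, the stem-loop, which the protein SLBP binds. Some of these genes can also make transcripts that run past the stem-loop to an ordinary polyadenylation signal, and selection on oligo(dT) beads favours such forms. The values below are therefore levels in the selected RNA and not levels of all histone mRNA.

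The stem-loop was looked for because the place where a listed gene ends, relative to it, sets which transcripts a row counts. The 16-base consensus of the histone stem-loop was searched on the sense strand within the listed gene and the 100 bases after it, and was found in 61 of the 69 genes and was missing in 8. In 57 of the 61 the listed end lay 4 to 8 nt after the stem-loop, so that these rows covered the short, stem-loop form and not sequence beyond it. The stem-loops of 7 genes follow from the mm9 genome, 5′ to 3′ on the sense strand, as examples. They include genes with high levels, genes that passed the test below, the commonest H4 form and rarer variants. Capitals mark the stem-loop.

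Hist1h1c, chr13:23831381-23831396, + strand: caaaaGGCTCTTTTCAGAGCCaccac

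Hist1h2ac, chr13:23775346-23775361, − strand: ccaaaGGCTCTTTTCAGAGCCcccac

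Hist1h2ai, chr13:21808708-21808723, + strand: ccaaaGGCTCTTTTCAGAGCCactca

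Hist1h2bc, chr13:23776516-23776531, + strand: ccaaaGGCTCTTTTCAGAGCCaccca

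Hist1h3g, chr13:23627758-23627773, + strand: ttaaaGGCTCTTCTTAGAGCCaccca

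Hist1h4d, chr13:23673819-23673834, + strand: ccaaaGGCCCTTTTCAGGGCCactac

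Hist1h4i, chr13:22132835-22132850, − strand: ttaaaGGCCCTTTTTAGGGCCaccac

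The 61 stem-loops fell into 7 sequences. The form of Hist1h1c, Hist1h2ac, Hist1h2ai and Hist1h2bc was shared by 39 genes of types H1, H2a, H2b and H3, whereas the form of Hist1h4d was found in 8 genes, all H4. All 11 H4 stem-loops opened with GGCCC, and all 50 stem-loops of the other types opened with GGCTC. The stem-loop of Hist1h4i was carried by 2 H4 genes and that of Hist1h3g by 1 H3 gene. Neither of the genes that passed the test below, Hist1h2bc and Hist1h2ai, therefore carried a stem-loop particular to it.

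Polyadenylated forms were marked in the gene models in a pair of ways. An AATAAA or ATTAAA signal stood within the last 50 listed bases of 5 genes, among them Hist1h2bc, whose listed transcript is spliced. Its stem-loop lies 7818 nt before its listed end, in the annotated intron, and its row, 724 nt of exons on chromosome 13 from 23776068 to 23784349, holds the coding exon, which ends before the stem-loop, and a distant last exon. For the 60 genes that could be set against GENCODE vM1 (mm9), the annotated transcript ran at least 100 nt past the listed end in 17 and less in 43. The longer annotation ended with a signal in its last 50 bases in 10 of the 17, such as Hist1h1c (835 nt longer), Hist3h2a (1482 nt) and Hist1h2ai (593 nt), and in 4 of the 43 others.

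What the promoters share varied by histone type. RefSeq promoters (GRCm38.p6, 300 bases around the start) were matched for 62 genes and searched on both strands for 3 motifs, none of which holds another. The CCAAT motif was present in all 6 H1, 18 H2a, 16 H2b and 10 H3 promoters, but in 3 of 12 H4 promoters, and in 37.9% of all 27025 promoters. The octamer motif, ATTTGCAT, occurred in 7 of 18 H2a and 6 of 16 H2b promoters and in none of the other types, against 1.75% of all promoters. The TATAAA motif was present in 35 of the 62, 56.5%, against 14.2%. These are matches of letters and not shown to be bound sites. Promoters of H2a and H2b genes are not all separate: in 12 pairs, described below, the starts lie 168 to 306 nt apart on opposite strands. A single site can then be counted for both genes, so the H2a and H2b counts are not independent.

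Histone reads were rare in these poly(A)-selected libraries. Counted reads per library ran from 22899107 to 30206085, and reads on the 69 genes made up 0.0241% (replicate 1) and 0.0226% (replicate 2) of them with dox, and 0.0172% (replicate 1) and 0.0196% (replicate 2) without. At least 1 read was counted in 67 of the 69 genes. Hist1h2bq and Hist1h2br had none in any library, which at 3 counts allows up to 0.133 CPM (counts scaled to library size with TMM factors) in the library with the highest limit. Both are listed with more than 1 genomic copy, as were 9 of the 69 in all. The methods state that unique reads were counted, so reads that fit several copies may be missing from such rows. The limit therefore covers only reads that could be counted. The rows of Hist2h3c1 and Hist2h3c2 held identical counts, as did those of Hist2h2aa1 and Hist2h2aa2. Each pair was counted once in the summed levels below, but the read shares above include both rows.

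A few genes held most of the signal. The 5 with the highest mean CPM (Hist1h1c, Hist1h2ac, Hist1h2bc, Hist3h2a and Hist1h2af) made up 61.0% of the summed level, and 34 of the 67 tested genes had a mean under 1 CPM. Compared per length, Hist1h1c, an H1 linker histone, stood highest at a mean of 73.3 CPM per kb, followed by Hist1h2ac at 62.0, Hist3h2a at 27.2, Hist1h2bc at 25.9, Hist1h2af at 25.0, Hist1h4i at 24.4 and Hist3h2ba at 11.8. Of these 7 genes with at least 10 CPM per kb, 5 were among the 17 whose annotated transcript runs at least 100 nt past the listed end, and Hist1h2bc was listed with its signal. Hist1h2af had no such annotation. The median level was 4.42 CPM per kb over the 17 genes and 1.67 over the 43 others, a description from gene models that are not independent of how strongly a gene is seen in such RNA. The limits of 10 CPM per kb and 100 nt were chosen after the values were seen.

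**Figure D1:**
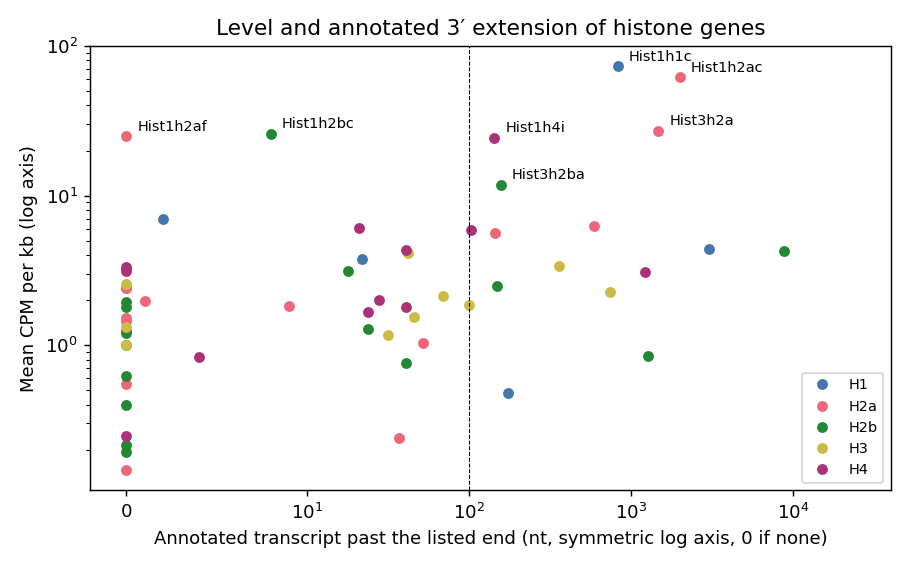
Mean level of 60 histone genes over the 4 libraries (CPM per kb, log axis) against the length by which the GENCODE transcript runs past the listed end (nt, symmetric log axis, 0 where it does not), coloured by histone type. The dashed line marks 100 nt: of the 7 genes labelled, which reached 10 CPM per kb, 5 lie to its right.

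To ask whether induction of CTCF S224E moved these genes, +dox was compared with −dox over all 20044 genes with a count, using the quasi-likelihood test of edgeR, two-sided, with Benjamini-Hochberg adjustment and a threshold of 0.01. One histone gene was higher with dox (Hist1h2bc) and 1 was lower (Hist1h2ai), of 67 tested. Over all genes 0.0798% passed as higher and 0.519% as lower, 0.599% together, so single genes rather than the family as a whole passed. At an unadjusted p of 0.05, 8 of the 67 passed, against 17.8% of all genes. Of these 8 histone genes 7 were higher and 1 lower, against 8.48% and 9.31% of all genes. Among the 2785 tested genes with a listed length under 1000 nt, 275 passed at that level, 206 higher and 69 lower. Among the 7 higher histone genes were Hist2h3c1 and Hist2h3c2, whose reads are the same. With identical rows counted once, 6 distinct rows were higher and 7 of 65 passed. DESeq2 called 3 of the 67, adding Hist1h1c, against 1.87% of all genes. Neither edgeR call held when a −dox library was left out (adjusted p = 0.55 for both without −dox replicate 1 and 0.67 without −dox replicate 2), when no gene of the table passed, or with edgeR's adjusted deviances or filterByExpr.

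Hist1h2bc, which encodes a core histone H2B, was at 28.4 and 22.2 CPM in +dox replicates 1 and 2 and at 12.1 and 12.4 CPM in −dox replicates 1 and 2, from 639, 507, 369 and 311 reads. Both +dox libraries lay above both −dox libraries, and the higher of them was +dox replicate 1. The mean was 25.3 ± 4.37 CPM with dox and 12.2 ± 0.222 CPM without (SD, n = 2 each), a log2 fold change of 1.05 (SE 0.17; adjusted p = 0.00937, edgeR), 1.23 in replicate 1 and 0.84 in replicate 2. It lies close to the threshold: the adjusted p was 0.0114 with no filter on low counts and 0.0171 with scaling to total counts.

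Hist1h2ai, which encodes a core histone H2A, was at 1.20 and 0.92 CPM with dox and at 4.49 and 4.58 CPM without, from 27, 21, 137 and 115 reads. Both +dox libraries lay below both −dox libraries by more than the spread within either group. Its mean was 1.06 ± 0.198 CPM with dox and 4.53 ± 0.0691 CPM without (SD, n = 2 each), a log2 fold change of -2.09 (SE 0.30; adjusted p = 0.00332, edgeR), -1.84 in replicate 1 and -2.22 in replicate 2. The gene is at chr13:21808281-21808728 on the + strand as 1 exon of 445 nt. Only 27.1% of its 50-base windows occurred in no other of the 66 single-exon histone genes, so that its count may be uncertain where copies are alike.

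Hist1h1c had the largest number of reads, 1538, 1524, 1012 and 1091 in the same order of libraries, or 68.3 and 66.7 CPM with dox and 33.1 and 43.5 CPM without. Both +dox libraries lay above both −dox libraries. The log2 fold change was 0.82 (SE 0.14) and missed the threshold narrowly in edgeR (adjusted p = 0.0102), but passed it in DESeq2 (adjusted p = 4.79e-05).

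Hist1h4i, an H4 gene, was at 12.8 and 12.4 CPM with dox and 7.04 and 6.66 CPM without. These groups did not overlap either, and the replicates were close to each other. Its log2 fold change was 0.88 (SE 0.19; adjusted p = 0.0325, edgeR), 0.86 in replicate 1 and 0.89 in replicate 2.

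**Figure D2:**
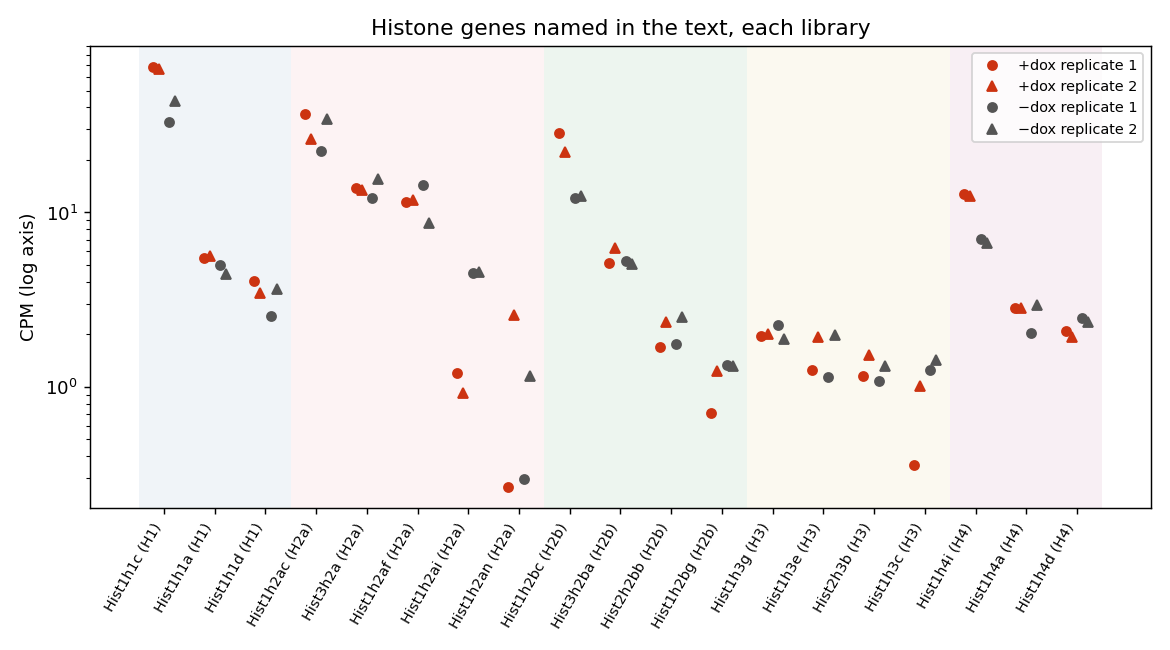
CPM (log axis) of the 19 histone genes named by rule, grouped by histone type, with 1 symbol per library (circles replicate 1, triangles replicate 2, red +dox, grey −dox). Hist1h1c, Hist1h2bc and Hist1h4i lie higher in both +dox libraries and Hist1h2ai lower, whereas most other genes overlap.

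Other genes at high levels did not separate by dox. Hist1h2ac, which encodes H2A, was at 36.7 and 26.4 CPM with dox and 22.6 and 34.4 CPM without. The groups overlapped, and the direction differed between the replicates, 0.70 in replicate 1 and -0.38 in replicate 2 (log2 fold change 0.15, adjusted p = 0.735, edgeR). Hist3h2a was at 13.9 and 13.4 CPM with dox and 12.1 and 15.6 CPM without, and Hist1h2af at 11.5 and 11.8 CPM with dox and 14.4 and 8.69 CPM without. In both of these H2A genes the −dox libraries spanned the +dox libraries. The H2B gene Hist3h2ba was at 5.15 and 6.22 CPM with dox and 5.27 and 5.06 CPM without, also overlapping.

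At lower levels, spread between libraries was often larger than any difference between groups. Hist1h2an, an H2A gene with a fitted log2 fold change of 1.01 (SE 0.78; adjusted p = 0.565, edgeR), was at 0.266 and 2.58 CPM with dox and 0.295 and 1.16 CPM without. It was therefore high in both replicate 2 libraries and low in both replicate 1 libraries, and its log2 fold change ran from -1.39 without +dox replicate 2 to 2.26 without −dox replicate 2. The H3 gene Hist1h3c was at 0.355 and 1.01 CPM with dox and 1.24 and 1.43 CPM without (log2 fold change -0.96, adjusted p = 0.319, edgeR). Its groups did not overlap, yet the +dox libraries differed more from each other than the higher of them from −dox. Hist2h3c1 and Hist2h3c2, which share their reads, had 20, 12, 7 and 2 of them, with an adjusted p of 0.12. The remaining named genes, Hist1h1a, Hist1h1d, Hist2h2bb, Hist1h2bg, Hist1h3g, Hist1h3e, Hist2h3b, Hist1h4a and Hist1h4d, had log2 fold changes from -0.45 to 0.28, and none passed the test.

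Many H2a and H2b genes lie head to head, on opposite strands with a promoter region between them. In all, 12 such pairs were found, with starts 168 to 306 nt apart. Hist1h2bc and Hist1h2ac form 1 of them, with starts 240 nt apart, and only Hist1h2bc was called (log2 fold change 1.05 against 0.15). Hist1h2ai faces Hist1h2bl across 269 nt. Hist1h2bl was at 0.755 and 0.744 CPM with dox and 0.688 and 0.877 CPM without (log2 fold change -0.05, adjusted p = 0.967, edgeR), so that its groups overlapped while those of Hist1h2ai did not. The other pairs that held a named gene were Hist1h2ae with Hist1h2bg (0.17 and -0.45), Hist1h2an with Hist1h2bp (1.01 and -0.75) and Hist3h2a with the pseudogene Hist3h2bb-ps (-0.02 and -0.29), and none of these was called. The difference in response within a pair was not tested.

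**Figure D3:**
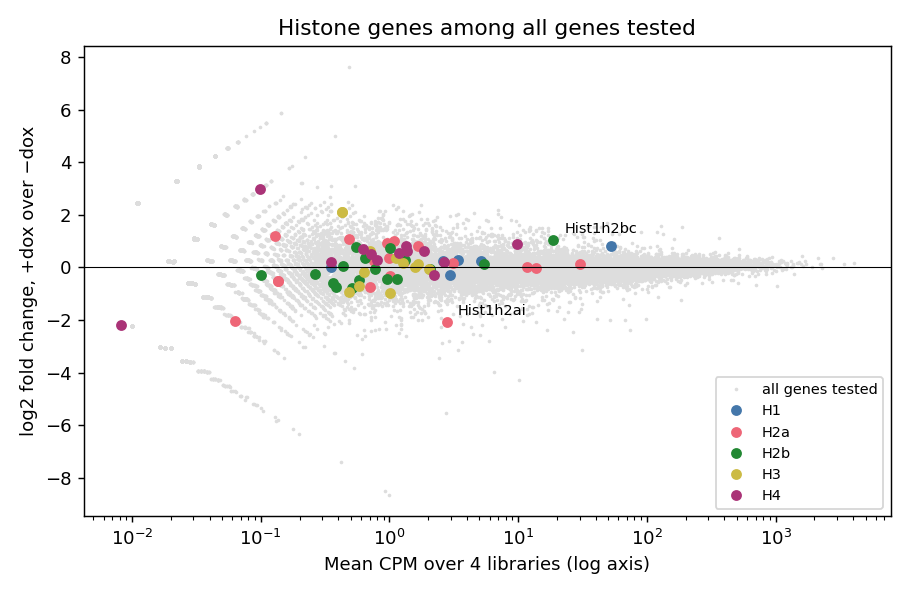
Log2 fold change of +dox over −dox against mean CPM (log axis) for the 20044 genes tested (grey) and the 67 histone genes, coloured by type. The histone genes lie within the cloud of all genes, with Hist1h2bc at 1.05 and Hist1h2ai at -2.09 labelled.

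Taken by histone type, the summed level was higher in both +dox than in both −dox libraries for H1, H2b and H4, but not for H2a and H3. Summed H1 was 82.9 and 82.4 CPM with dox and 46.1 and 58.0 CPM without, a log2 ratio of group means of 0.67 (0.85 in replicate 1 and 0.51 in replicate 2). Summed H2b was 43.7 and 40.1 CPM with dox and 28.4 and 29.2 CPM without (0.54), and summed H4 was 29.0 and 26.1 CPM with dox and 18.3 and 18.4 CPM without (0.59). In these 3 types the groups were apart by more than their libraries differed.

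Summed H2a was 77.3 and 67.7 CPM with dox and 65.3 and 74.4 CPM without (0.05), and summed H3 was 10.7 and 12.4 CPM with dox and 11.2 and 11.8 CPM without (0.01). Both overlapped. With 2 libraries against 2 an exact two-sided permutation test cannot go below p = 0.333, so these sums were not tested.

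A single gene carried much of each sum that separated. Without Hist1h1c, H1 stayed apart only narrowly, at 14.6 and 15.6 CPM with dox and 12.9 and 14.5 CPM without, a log2 ratio of 0.14. Without Hist1h2bc, H2b was at 15.3 and 17.9 CPM with dox and 16.3 and 16.8 CPM without, which overlapped (0.01). Without Hist1h4i, H4 also stayed apart, at 16.2 and 13.7 CPM with dox and 11.3 and 11.7 CPM without (0.38). The ratio was 0.52 in replicate 1 and 0.23 in replicate 2. Its +dox libraries then differed more from each other than the lower of them from −dox. Within H4, 7 genes reached a mean of 1 CPM, namely Hist1h4i, Hist1h4a, Hist1h4d, Hist1h4h, Hist4h4, Hist1h4k and Hist2h4. Of these 6 had positive log2 fold changes and Hist1h4d, at -0.27, did not. Among all genes with a listed length under 1000 nt and that mean, 695 of 1016 were positive.

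**Figure D4:**
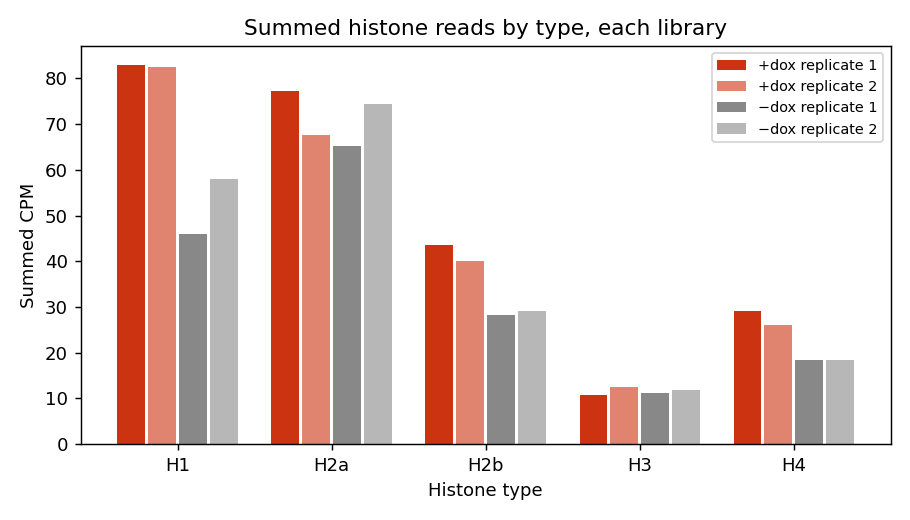
Summed CPM of histone genes by type, 1 bar per library (red +dox, grey −dox, lighter bars replicate 2; rows with identical reads counted once). Both +dox bars exceed both −dox bars for H1, H2b and H4, whereas those for H2a and H3 overlap.

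Gene by gene, the family lay slightly above 0. Among the 33 histone genes that reached a mean of 1 CPM, 24 had a positive and 9 a negative log2 fold change. At that level 6933 of all 13911 genes were positive, and 695 of the 1016 with a listed length under 1000 nt. The median of the 33 histone genes was 0.20 (replicate 1, 0.19, and replicate 2, 0.13). The median was 0.26 for H1 (5 genes), 0.15 for H2a (9), 0.21 for H2b (6), 0.09 for H3 (6) and 0.62 for H4 (7). Over all 13911 genes at that level it was -0.0011, but over the 1016 of them with a listed length under 1000 nt, as nearly all histone genes have, it was 0.13. Both +dox libraries were above both −dox libraries in 12 of the 33, 36.4%, and below in 4, 12.1%. The same held for 26.1% and 27.7% of all genes and for 38.9% and 14.6% of the short genes, so the histone shares were near those of other short genes.

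No gene for the factors that make and handle histone mRNA was called. Of 31 tested genes for histone transcription, 3′ processing and turnover, none passed the test. At an unadjusted p of 0.05, 7 passed, 4 higher and 3 lower (edgeR), against 17.8% of all genes. Slbp, whose protein binds the stem-loop, was at 81.2 and 80.0 CPM with dox and 96.4 and 93.9 CPM without (log2 fold change -0.24, adjusted p = 0.222, edgeR). Npat, which encodes a coactivator of histone gene transcription, was at 61.8 and 58.6 CPM with dox and 76.3 and 85.5 CPM without (-0.43, adjusted p = 0.0619, edgeR). Both were below −dox in each +dox library without passing the threshold. The list as a whole did not share that direction. Both +dox libraries were above both −dox libraries in 13 of the 31 genes, 41.9%, and below in 6, 19.4%. All 31 averaged 1 CPM or more, and across all genes reaching that level the shares were 26.1% and 27.7%.

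Histone genes outside the clusters, most of which are transcribed outside S phase and polyadenylated as a rule, gave no call either among 15 tested. At an unadjusted p of 0.05, 5 passed, 2 higher and 3 lower (edgeR), against 17.8% of all genes. Of the H3.3 genes, H3f3b was at 325.9 and 344.1 CPM with dox and 303.0 and 368.6 CPM without, which overlapped. H3f3a was at 34.1 and 37.9 CPM with dox and 23.7 and 26.1 CPM without, which did not (log2 fold change 0.53, adjusted p = 0.0647, edgeR). The linker histone gene H1f0 was at 58.6 and 66.3 CPM with dox and 66.3 and 105.0 CPM without. The fitted log2 fold change of H1f0 was -0.45 (adjusted p = 0.183, edgeR), but -0.09 without −dox replicate 2, its highest library, and -0.75 without −dox replicate 1, and it passed without +dox replicate 2 (-0.55, adjusted p = 0.00422, edgeR). The H2A.Z gene H2afz stood at 0.14 (adjusted p = 0.719, edgeR). None of 30 S phase genes passed (5 at an unadjusted p of 0.05, all lower), nor did any of 23 genes for histone chaperones and the acetylase of new histones (3 at an unadjusted p of 0.05). DESeq2's calls over these lists and the next are given with the alternatives.

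Other genes between the clustered histone genes were followed by position. As the Hist1 interval was drawn, it reached to Hist1h2al, which is listed at chr13:51295453-51298435, far from the others. The cluster intervals together took in 185 tested genes, of which 1 passed, against 0.599% of all genes. That gene, Foxq1, a forkhead transcription factor gene, was at 3.11 and 2.93 CPM with dox and 11.6 and 12.3 CPM without (log2 fold change -1.98, adjusted p = 0.000737, edgeR). At an unadjusted p of 0.05 (edgeR), 33 of the 185 passed, 7 higher and 26 lower. Over all genes 17.8% passed at that level, 8.48% higher and 9.31% lower. With the interval drawn without Hist1h2al, a choice made after seeing the data, 19 genes were tested, and none passed or reached an unadjusted p of 0.05 (edgeR).

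The state of the libraries bears on these values. The Ctcf row was at 327.1 and 329.3 CPM with dox and 295.2 and 304.3 CPM without (log2 fold change 0.13, adjusted p = 0.475, edgeR), and how far transgene reads fall on it was not tested. All 10 ES cell markers were present in all libraries and summed to 6840 and 7569 CPM with dox and 6049 and 6419 CPM without. The 16 fibroblast markers, which feeders would bring, summed to 2211 and 870 CPM with dox and 755 and 782 CPM without. The high sum was that of +dox replicate 1. None of the 16 passed, and 13 had an unadjusted p under 0.05 (edgeR). Their part in the histone values was not tested. Without +dox replicate 1, the library that stood apart, 5 of the 67 histone genes passed (Hist1h2bc, Hist1h2ai, Hist1h1c, Hist1h4i and Hist1h2an), but calls rose over the whole table too, from 0.599% to 5.07% of all genes. Of 10 primitive streak markers, 7 were called lower with dox, their sum being 34.1 and 34.1 CPM with dox and 164.9 and 193.6 CPM without. In bulk RNA, fewer cells of a type and less RNA per cell cannot be told apart.

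How well a row stands for its own gene varied by type. Over the 66 single-exon histone genes the share of 50-base windows found in no other of them had a median of 43.7%, and it was under 50% in 37. The median was 90.5% for H1, 51.2% for H4, 43.8% for H2b, 34.4% for H2a and 30.9% for H3. With near-identical copies, how many reads each row of an H2a, H2b or H3 gene should hold is uncertain, and counting unique reads may leave some out. Whether the counting used the strand is not given in the sources used here, which leaves reads of overlapping antisense transcripts in doubt.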

How the data were processed

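Polyadenylated RNA was sequenced from 4 cultures. After cutadapt trimming, TopHat2 alignment (mm9) and removal of PCR duplicates, the authors counted unique exonic reads with HOMER and deposited raw counts per gene, 1 table per replicate number. Versions are not given in the sources used here. Libraries were grouped by their labels, and tables were joined by gene symbol; 547 genes, 1 of them a histone gene (Hist1h2bp), are listed under another transcript in the second table. Counts were fitted with edgeR 4.0.16 (R 4.3.3): TMM, quasi-likelihood test, all 20044 genes with at least 1 count. SEs were taken from the test statistic, and single-replicate log2 ratios used a prior count of 2. DESeq2 1.42.0 was the alternative that the study's methods name. The edgeR option that adjusts deviances for small counts was off, as is its default, and its results were known. Scripts were tested on simulated data.

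Histone genes and lists were chosen with earlier results of these data known. The text names genes that passed, the 3 highest per length in each type, the 3 highest and 3 lowest log2 fold changes at a mean of at least 1 CPM, their head-to-head partners, list genes that passed, and Slbp, Npat, H2afz, H3f3b, H1f0 and Ctcf; genes with identical rows and those with an unadjusted p under 0.05 that are named beyond this were chosen after their values were seen. Mizf, an older name of Hinfp, and H3f3c have no row. Limits and floors cover counting error only. The labels call the cultures replicates. The p-values set the group difference against the spread between them, estimated with information from all genes tested. All cultures were of 1 clone, so spread between clones was not measured. ChIP-seq and Hi-C samples were not used here.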

Additional observations from a re-analysis of the deposited data

How the results depend on the processing

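With 2 libraries per group, the calls were sensitive to the test. Of the histone genes, 2 were called; 3 with DESeq2 (375 of all genes, against 120), with DESeq2's size factors (136) and over genes whose transcript matched between the tables (141); 4 with the likelihood ratio test (457) and at an adjusted p of 0.05 (573); 1 (Hist1h2ai) with total counts (104) or no filter on low counts (109); and 0 with deviances adjusted for small counts (0 of all genes) or with filterByExpr (11 of all genes), though 8 had an unadjusted p under 0.05 in both. Hist1h2bc had an adjusted p of 0.0994 and Hist1h2ai of 0.0682 with adjusted deviances, and 0.0415 and 0.0267 with filterByExpr. Leaving out 1 library gave 0 to 5 calls: 5 without +dox replicate 1 (992 of all genes), 4 without +dox replicate 2 (877 of all genes), and 0 without −dox replicate 1 or −dox replicate 2, where 0 of all genes passed; the lone library of a group is then assumed to vary like the others. Both log2 fold changes kept their direction in every alternative run.

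The replicate numbers gave only 2 pairs, and the labels name no shared batch. Deviations of same-numbered libraries correlated at 0.196. With the replicate block, 4 histone genes (Hist1h1c, Hist1h2ai, Hist1h2bc, Hist1h4i) and 786 of all genes were called, and 11 genes of the comparison lists, all from the wide cluster interval. The block also called 12 of 16 fibroblast markers and 4 of 10 ES cell markers, all higher with dox, and 9 of 10 primitive streak markers, all lower.

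Of those lists, 1 gene was called; 5 with DESeq2, 4 with the likelihood ratio test, 6 at an adjusted p of 0.05, 0 with adjusted deviances, with filterByExpr and with cluster intervals without Hist1h2al, and 0 to 14 when 1 library was left out (14 without +dox replicate 1, 12 without +dox replicate 2).

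The median log2 fold change of histone genes at 1 CPM or more was 0.20, 0.15 with total counts, and 0.12 to 0.29 when 1 library was left out. The summed H3 ratio ran from -0.10 to 0.12. Without Hist1h1c, Hist1h2bc or Hist1h4i, sums chosen after seeing the data, the ratio was 0.14 for H1, 0.0061 for H2b and 0.38 for H4. Scaling to total counts shifted the median of all genes by -0.04.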
